A study of Mus musculus with 2 samples.

Results

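The 9 genes described here encode transcription factors and 1 coactivator of mesenchymal development: the basic helix-loop-helix factor Twist1, the homeobox factors Prrx1, Prrx2, Msx1 and Six2, its partner Eya2, the T-box factors Tbx15 and Tbx18, and the zinc finger and helix-loop-helix factor Ebf1. They were chosen by gene symbol and are 9 of the 32287 genes listed in both libraries. Their transcripts were counted in single cells of the leptomeninges, which were peeled by hand off the cerebral hemispheres. The animals were 3 months old and carried Pdgfra-H2BGFP, an allele in which Pdgfra drives a nuclear green fluorescent protein, and the labels name males and females without saying how many animals entered a library. The 2 libraries, R1 and R2, form 1 group with no treatment or mutant, so cell classes are compared with each other inside each library (n = 2). Nothing in the labels says whether the libraries came from separate animals, and the p-values therefore measure only the spread between these libraries, which may be technical.

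TWIST proteins pair with E proteins of the basic helix-loop-helix family and bind E-box sequences, and ID proteins take up E proteins and keep them from DNA. PRRX, MSX and SIX2 proteins carry a homeodomain, and SIX2 and its relatives act with EYA coactivators. Several of these factors are active in the embryonic mesenchyme of the head, from which the meninges form, and Tbx18 is widely used as a mark of mural cells and Ebf1 as a mark of pericytes, of B cell development and of adipose precursors. The leptomeninges hold, from the brain outward, pial and perivascular fibroblasts, inner arachnoid fibroblasts and the arachnoid barrier layer, which meets the dural border cells, and they are crossed by vessels of endothelial and mural cells.

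The genes lie on different chromosomes except for 1 pair, in the GENCODE vM21 annotation of mm10: Prrx1 at chr1:163245119-163313710, Prrx2 at chr2:30834972-30881251, Eya2 at chr2:165595032-165771727, Tbx15 at chr3:99240381-99354259, Msx1 at chr5:37820485-37824583, Tbx18 at chr9:87702800-87731260, Ebf1 at chr11:44617317-45008091, Twist1 at chr12:33957671-33959829 and Six2 at chr17:85684277-85688274. Tbx15, Eya2, Prrx1 and Ebf1 each overlap 1 antisense gene that is also counted in the libraries (Gm43120, Gm28163, Gm20471 and Gm12158). Use of strand in the counting is not given in the sources used here, and whether reads of such a pair were kept apart was not tested.

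RefSeq (GRCm38.p6) gave windows of 250 bases before the start for 7 of the 9 genes, Ebf1 with more than 1. Shown here are the parts outside annotated exons for 3 genes whose levels differed between classes in different ways, Msx1 (highest mean level in inner arachnoid-like cells, with libraries that overlap those of pial and perivascular-like cells), Six2 (in dural border-like cells) and Prrx1 (in mural-like cells, with libraries that overlap those of arachnoid barrier-like cells). Each is written 5′ to 3′ on the gene's own strand, which is the minus strand for all 3. Capitals mark the E-box CANNTG and the homeodomain core TAAT on either strand.
Msx1, chr5:37824586-37824835: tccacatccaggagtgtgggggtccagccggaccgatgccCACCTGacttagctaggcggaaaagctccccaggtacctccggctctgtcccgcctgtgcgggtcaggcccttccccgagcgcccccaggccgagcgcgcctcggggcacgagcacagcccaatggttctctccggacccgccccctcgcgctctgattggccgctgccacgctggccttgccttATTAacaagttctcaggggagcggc
Six2, chr17:85688275-85688504: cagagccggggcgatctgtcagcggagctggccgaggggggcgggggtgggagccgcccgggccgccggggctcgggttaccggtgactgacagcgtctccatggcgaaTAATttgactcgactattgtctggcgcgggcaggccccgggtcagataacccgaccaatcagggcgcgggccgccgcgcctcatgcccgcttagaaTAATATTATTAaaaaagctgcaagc
Prrx1, chr1:163313711-163313900: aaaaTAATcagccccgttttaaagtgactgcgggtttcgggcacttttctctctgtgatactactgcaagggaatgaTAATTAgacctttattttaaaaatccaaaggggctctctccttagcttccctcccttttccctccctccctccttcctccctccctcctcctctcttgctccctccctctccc
The Six2 stretch held 4 matches of TAAT, 3 of them in 1 run of adjoining or overlapping matches, and no E-box. The Prrx1 stretch held 3 matches of TAAT, 2 of them overlapping, and no E-box. The Msx1 stretch held 1 of each. Of 32851 RefSeq windows of 250 bases, 54.9% held TAAT and 66.2% held CANNTG on either strand, so either motif alone is common. The rarer T-box motif GGTGTGA was in 3.33% of windows, and among the 8 windows of these genes it was in 1, of Ebf1, where it overlaps the match of TCACAC, found in 12.3% of windows. The E-box CAGATG was in 14.4% of windows and, among these genes, in that of Tbx18. The palindromic EBF motif was in 0.779% of windows and in none of these genes. A match describes the letters and is not a binding site.

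UMIs (unique molecular identifiers) mark single captured transcripts. R1 held 14586462 of them over 7276 barcodes, and R2 held 12359040 over 6743 barcodes. The labels state an aim of at most 5000 cells for each. Filters on genes and mitochondrial share left 2985 and 3035 cells, with medians of 1643 and 1249 UMIs. The libraries shared 93 barcode sequences. Of these, 74 were kept as cells in both, 72 of the 74 fell in the same cluster in both, and 61 of them made up the whole of 1 endothelial-like cluster, named C04 here, which held 61 cells in R1 and the same number in R2. The UMI count of such a barcode in R2 was 0.943 to 1.25 times that in R1. All cells with a shared barcode were left out of the sums below, and every call among the 9 genes was recomputed with them. Scrublet called 3 barcodes as doublets in each library, about 0.1%, so doublets were in effect not removed.

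Clusters were named from marker genes, none of which is among the 9 genes or the related factors, and these genes were left out of the clustering. Pial and perivascular-like cells numbered 170 in R1 and 90 in R2, inner arachnoid-like cells 228 and 407, arachnoid barrier-like cells 42 and 30, and dural border-like cells 569 and 302. Endothelial-like cells numbered 265 and 252, and mural-like cells 46 and 47. The defining markers of the vessel classes followed their names. Pecam1 was at 832 and 916 CPM (UMIs per 1000000 UMIs of the class) in endothelial-like cells in R1 and R2. Rgs5 was at 5677 and 2188 CPM in mural-like cells, in which Pdgfra had 0 UMIs in both libraries. Pdgfra, which was not among the markers that named the layers, was at 262 and 207 CPM in pial and perivascular-like cells. It was at 17.6 and 15.4 CPM in dural border-like cells, against 9.26 and 11.8 CPM in border macrophage-like cells. The markers that named each layer were also summed. The pial list was at 7835 and 6999 CPM in its own class and at 1318 and 1152 in inner arachnoid-like cells. The inner arachnoid list was at 1931 and 1816, against only 999 and 1041 in pial and perivascular-like cells. The barrier list was at 4598 and 3595, against 1165 and 1214 in dural border-like cells. The dural border list was at 5507 and 5294, against 302 and 775 in arachnoid barrier-like cells. The depth of a class sets its precision: the arachnoid barrier-like sums held 62851 and 50354 UMIs and the mural-like sums 66937 and 51644, against 1419634 and 716423 for dural border-like cells. Intervals and floors below cover counting error only.

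RNA free in the droplets can put UMIs of a gene into cells that do not express it. Border macrophage-like cells (539 and 681), which should lack these factors, served as the background. In them the 9 genes ranged from 2.63 CPM (Ebf1, R2) to 21.4 CPM (Prrx1, R1). The part of free RNA, doublets and low expression in this background was not tested. In dural border-like cells the 95% Poisson interval of all 9 genes lay above that of macrophages in both libraries. In endothelial-like cells 8 of the 9 overlapped it in both libraries, all but Ebf1.

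**Figure D1:**
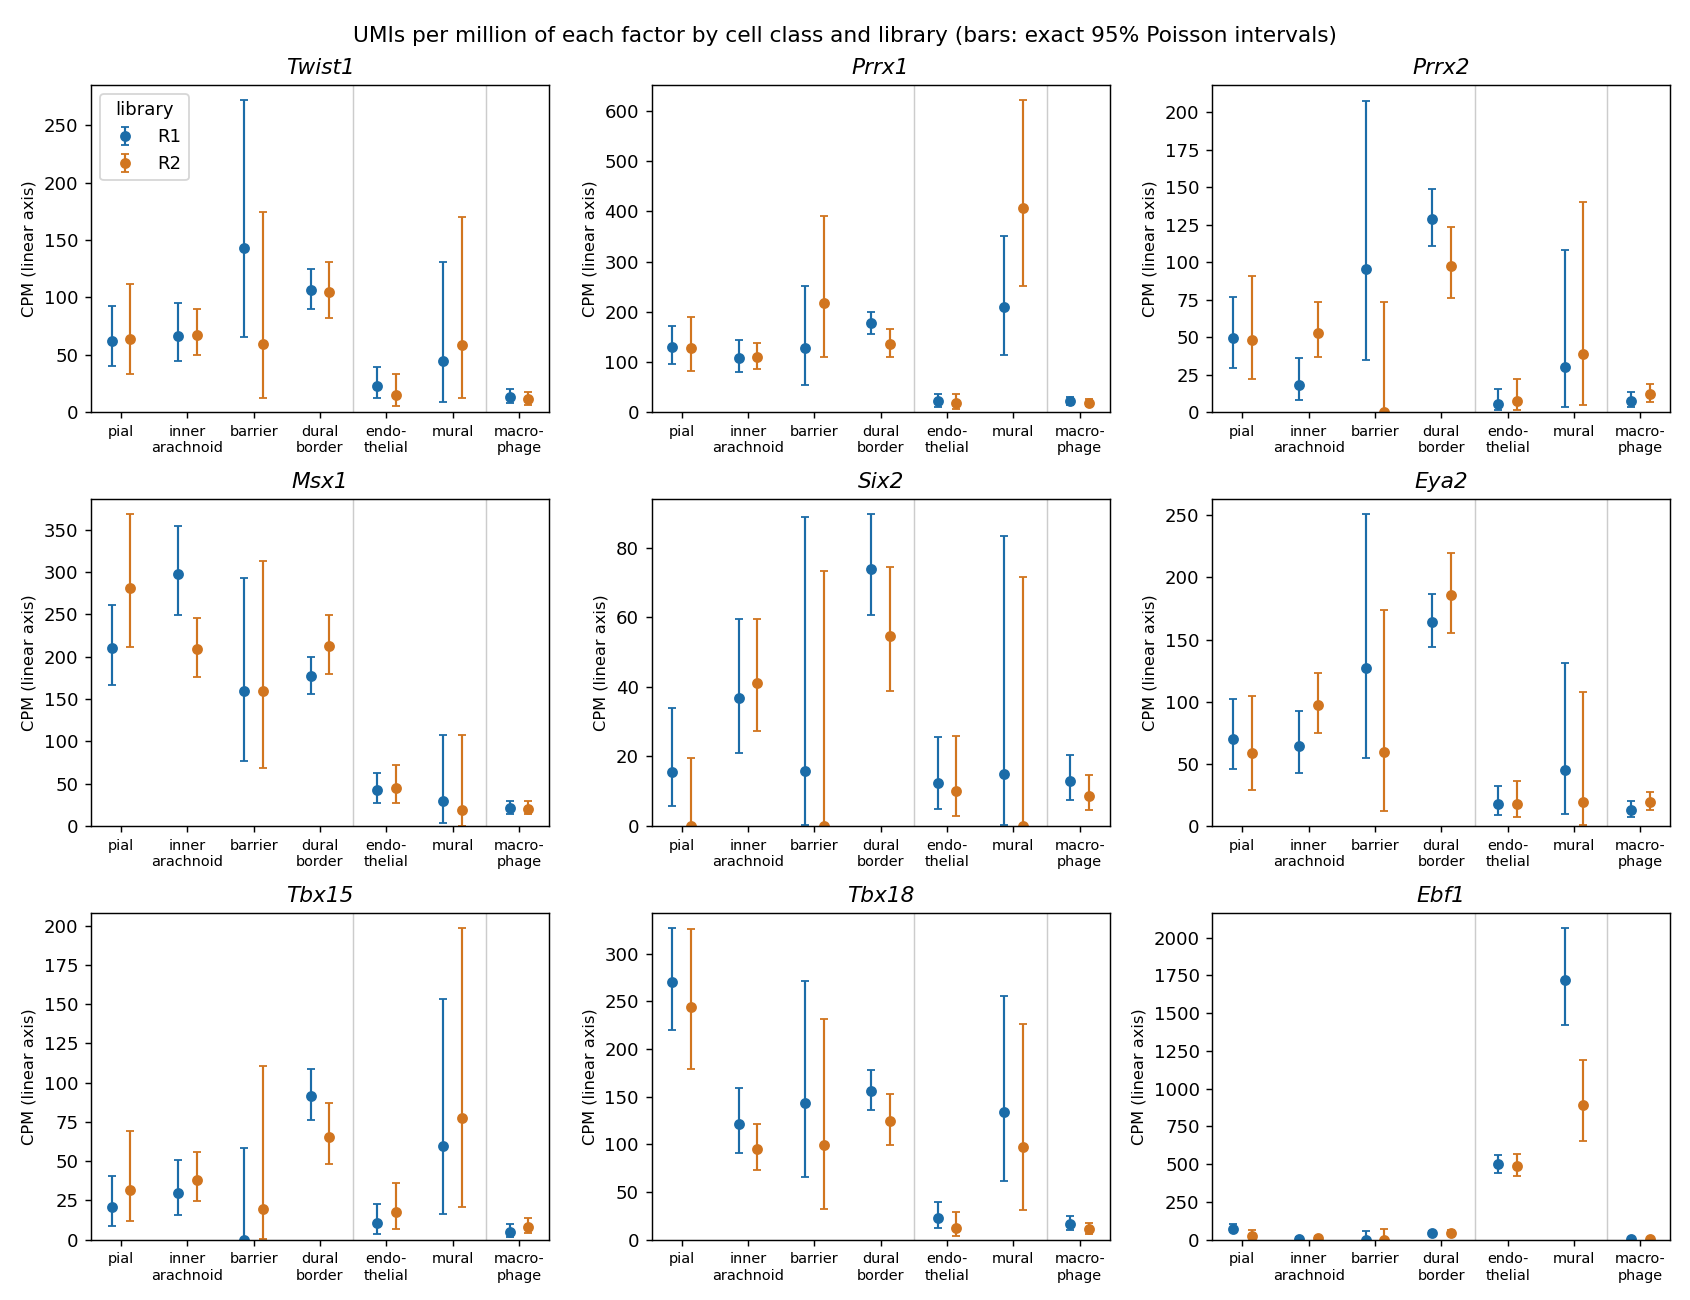
Level of each gene (CPM, linear axis from 0) in 7 cell classes; blue points are R1, orange points R2, and bars are exact 95% Poisson intervals. Ebf1 stands at 1718 and 891 CPM in mural-like and 501 and 491 CPM in endothelial-like cells, and 5 of the 9 genes have their highest mean level in dural border-like cells.

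Tbx18, Prrx1, Prrx2, Msx1, Eya2 and Twist1 were higher in fibroblast-like cells, the mean of the 4 layers with equal weight, than in endothelial-like cells, and Ebf1 was lower. Thus 7 of 9 genes passed (edgeR's quasi-likelihood test, Benjamini-Hochberg adjusted p under 0.05 over 9257 genes), 6 higher and 1 lower, where 32.9% of all tested genes passed, 12.2% of all as higher and 20.7% as lower. Tbx18, whose levels are given below by layer, had a log2 fold change of 2.98 ± 0.32 (edgeR adjusted p = 4.92e-19). The median log2 fold change of the 9 genes was 2.23, or 2.33 over the 8 without Ebf1, against -0.13 over all tested genes.

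Prrx1, a homeobox factor of limb and craniofacial mesenchyme, was at 130 and 127 CPM in pial and perivascular-like, 108 and 110 in inner arachnoid-like, 127 and 218 in arachnoid barrier-like and 177 and 135 in dural border-like cells in R1 and R2. In endothelial-like cells it was at 21.2 and 17.6 CPM, below every layer and at the level of macrophages (21.4 and 18.4). The log2 fold change of fibroblast-like over endothelial-like cells was 2.80 ± 0.31 (SE; n = 2 libraries; edgeR adjusted p = 3.93e-18). Its paralog Prrx2 was at 129 and 97.7 CPM in dural border-like, 49.3 and 47.8 in pial and perivascular-like, 18.3 and 52.9 in inner arachnoid-like and 95.5 and 0 in arachnoid barrier-like cells. The barrier-like value of R1 rests on 6 UMIs, and the 0 of R2 allows up to 59.6 CPM (3 counts). Endothelial-like cells were at 5.30 and 7.55 CPM, and the log2 fold change was 3.16 ± 0.51 (edgeR adjusted p = 5.61e-09).

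Msx1, a homeobox repressor downstream of BMP signals in many mesenchymes, ranged over the 4 layers from 159 CPM (arachnoid barrier-like, R2) to 298 CPM (inner arachnoid-like, R1). Endothelial-like cells were at 42.4 and 45.3 CPM and macrophages at 20.6 and 20.4, and the log2 fold change of fibroblast-like over endothelial-like cells was 2.23 ± 0.26 (edgeR adjusted p = 8.39e-17). Within endothelial-like cells, Msx1 was at 144 and 51.3 CPM in cluster C12, led by Gkn3, Eln and Fbln5 beside Cldn5, and at 19.5 and 43.4 CPM in the larger cluster C05. The C12 values rest on 15 and 5 UMIs. Both libraries of C12 lay above both of C05, but in R2 the counting intervals overlapped.

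Twist1 was at 106 and 105 CPM in dural border-like, 66.5 and 67.6 in inner arachnoid-like, 62.3 and 63.7 in pial and perivascular-like and 143 and 59.6 in arachnoid barrier-like cells. It was at 23.0 and 15.1 CPM in endothelial-like cells, and the log2 fold change was 2.06 ± 0.35 (edgeR adjusted p = 2.92e-08). Eya2, a phosphatase and coactivator, was higher in fibroblast-like than in endothelial-like cells by 2.44 ± 0.35 on the log2 scale (edgeR adjusted p = 3.43e-11), with 17.7 and 17.6 CPM in the latter. Tbx15 (10.6 and 17.6 CPM in endothelial-like cells, log2 fold change 1.03 ± 0.65, edgeR adjusted p = 0.234) and Six2 (12.4 and 10.1 CPM, 0.95 ± 0.68, adjusted p = 0.307) did not pass. Both had 0 or 1 UMI in the arachnoid barrier-like sums. In a fit without that class, chosen after seeing the data, Tbx15 (1.72, edgeR adjusted p = 0.000156) and Six2 (1.52, adjusted p = 0.00638) passed too.

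Ebf1 had the opposite distribution. It was at 1718 and 891 CPM in mural-like cells (115 and 46 UMIs) and at 501 and 491 CPM in endothelial-like cells. Pial and perivascular-like cells were at 72.7 and 26.6 CPM, dural border-like cells at 47.2 and 47.5, and inner arachnoid-like cells at 6.88 and 11.8. No Ebf1 UMI was found in arachnoid barrier-like cells, which allows up to 47.7 CPM in R1 and 59.6 CPM in R2, a limit near the level of dural border-like cells. Mural-like and endothelial-like cells did not overlap each other or any layer in the 2 libraries. Mural-like cells were higher than endothelial-like cells by 1.15 ± 0.21 on the log2 scale (edgeR adjusted p = 1.93e-06). With cells of at least 800 genes this turned to -0.98 (adjusted p = 0.000926), where 56 of the 75 cells named mural-like came from C08, an unnamed cluster led by neural genes such as Meg3, and only 19 from the mural-like class. The fitted folds against the 4 layers depend on the prior count through the class at 0. Without that class, fibroblast-like cells were lower than endothelial-like cells by -3.93 and than mural-like cells by -5.16 on the log2 scale. Endothelial-like cells also held mural transcripts, with Rgs5 at 948 and 453 CPM. The 14 mural markers summed to 2338 and 1576 CPM in them, 22544 and 13593 in mural-like cells and 244 and 257 in macrophages. The part of mural RNA in the Ebf1 level of endothelial-like cells was not tested.

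Prrx1 and Tbx18, found in the fibroblast-like layers, were also above the macrophage intervals in mural-like cells in both libraries. Prrx1 was at 209 and 407 CPM in mural-like cells (14 and 21 UMIs), higher than in endothelial-like cells by 3.65 ± 0.44 on the log2 scale (edgeR adjusted p = 9.35e-15). Tbx18 was at 134 and 96.8 CPM in mural-like and at 23.0 and 12.6 CPM in endothelial-like cells, a log2 fold change of 2.40 ± 0.58 (edgeR adjusted p = 0.000651). With Ebf1, 3 of 9 genes were higher in mural-like than in endothelial-like cells, where 12.5% of all tested genes passed, 4.55% as higher. Tbx15 was at 59.8 and 77.5 CPM in mural-like cells, 4 UMIs in each library, with a log2 fold change of 2.05 ± 0.75 just outside the threshold (edgeR adjusted p = 0.0510). With the cells of shared barcodes kept, Tbx15 passed (2.39, adjusted p = 0.0152), and this was the 1 call among the 9 genes, over the 7 comparisons, that those cells changed. The median log2 fold change of the 9 genes was 1.15, against -0.28 over all tested genes.

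Between fibroblast-like and mural-like cells, 3 of 9 genes passed, where 10.4% of all tested genes did, 4.47% as higher in fibroblast-like cells and 5.96% as lower. Msx1 was at 29.9 and 19.4 CPM in mural-like cells (2 and 1 UMIs) and higher in fibroblast-like cells by 3.25 ± 0.58 (log2; edgeR adjusted p = 9.58e-07). Eya2 was at 44.8 and 19.4 CPM in mural-like cells and passed narrowly (1.76 ± 0.63, edgeR adjusted p = 0.0484). The Eya2 call held in 2 of 9 alternatives, with adjusted p from 0.0227 to 0.323. Ebf1 was lower in fibroblast-like cells. Prrx1 had a log2 fold change of -0.86 ± 0.31 that missed the threshold (edgeR adjusted p = 0.0528), and -0.88 that passed it (adjusted p = 0.0365) in the fit without arachnoid barrier-like cells. The median over the 9 genes was 0.95, against 0.13 over all tested genes.

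Fibroblast markers moved with the library in mural-like cells. The summed level of the 9 fibroblast markers, all of them seen, was 18450 CPM in R1 and 46511 CPM in R2, against 11401 and 23520 CPM in endothelial-like cells and 23491 to 272542 CPM over the 4 layers. The 8 macrophage markers summed to 149 and 775 CPM, with 6 and 7 of them seen. The part of either in the Prrx1 level of mural-like cells was not tested. Malat1 is a nuclear RNA. Prrx1 was at 223 and 271 CPM in mural-like cells with at least 1% of UMIs from Malat1 (35 and 27 cells), and at 116 and 744 CPM (1 and 11 UMIs) in those with less (11 and 20 cells). In the Malat1-richer mural-like cells Ebf1 was at 1938 and 1031 CPM and Tbx18 at 154 and 136 CPM. The 4 Tbx15 UMIs of R1 were all in these cells, and the 4 of R2 were all in the Malat1-poorer ones.

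**Figure D2:**
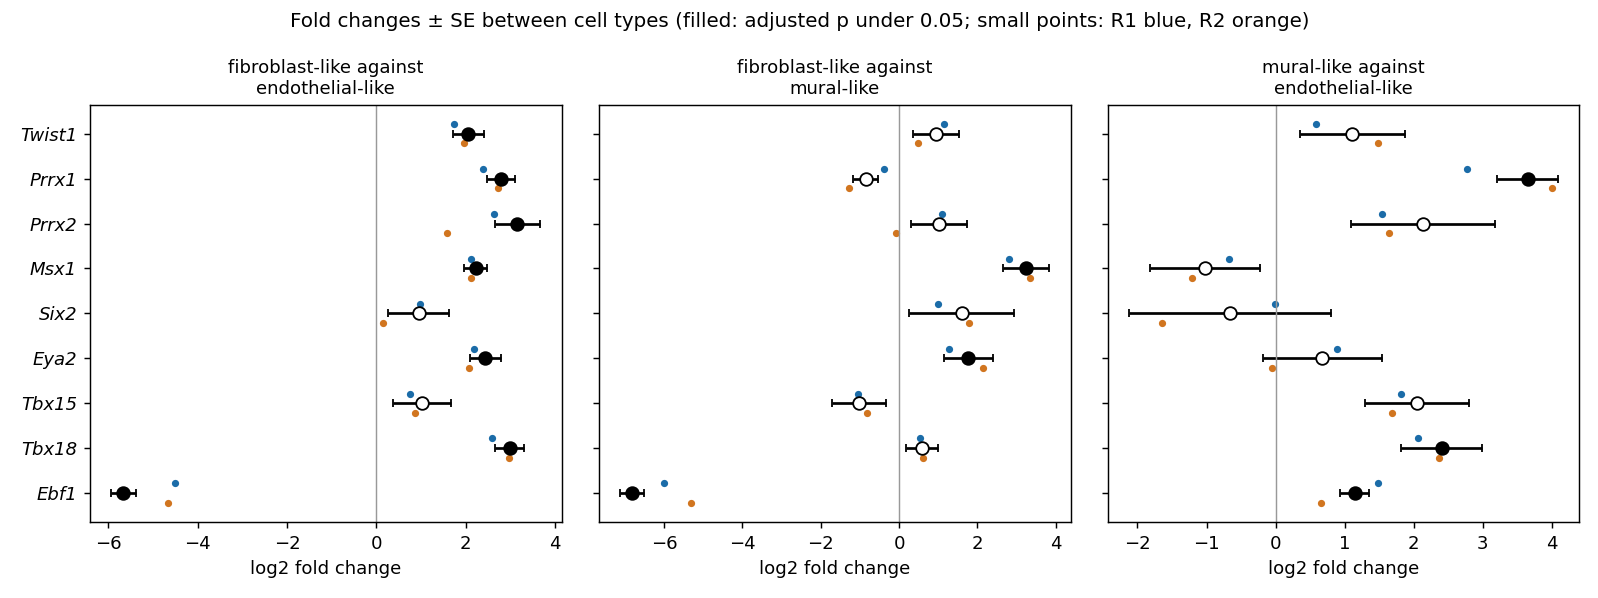
Log2 fold changes (x axis, ± SE) of the 9 genes between fibroblast-like, endothelial-like and mural-like cells; filled circles passed an adjusted p of 0.05, and small points are the libraries alone (R1 blue, R2 orange). Ebf1 lies far left in both fibroblast-like comparisons, while Prrx1 at 3.65 and Tbx18 at 2.40 lie right of 0 in mural-like against endothelial-like cells.

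Among the 4 layers, dural border-like cells had the highest mean level of 5 of the 9 genes, Tbx15, Six2, Eya2, Twist1 and Prrx2. An unnamed fibroblast-like cluster, F02, took no part in these comparisons and had higher mean levels of all 5, given further below. Against the mean of the other 3 layers, 5 of 9 genes were higher in dural border-like cells and none lower, where 16.7% of all tested genes passed, 10.8% as higher and 5.83% as lower. The 5 were Tbx15, Six2, Eya2, Prrx2 and Ebf1, while Twist1 did not pass (0.30 ± 0.24, adjusted p = 0.496). The median log2 fold change was 0.93, or 0.62 without Ebf1, against 0.08 over all tested genes.

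Six2, a factor that keeps progenitors of the kidney undifferentiated, was at 74.0 and 54.4 CPM in dural border-like cells and at 36.7 and 41.1 in inner arachnoid-like cells. It was near the macrophage level (12.8 and 8.53 CPM) in the other layers, at 15.6 and 0 CPM in pial and perivascular-like and 15.9 and 0 in arachnoid barrier-like cells. The libraries of dural border-like cells lay above those of every other class in the fit, but below those of the unnamed cluster F02 (150 and 93.0 CPM). The log2 fold change of Six2 against the other layers was 1.89 ± 0.42 (edgeR adjusted p = 0.000115). Its partner Eya2 was at 164 and 186 CPM in dural border-like cells, above inner arachnoid-like (64.2 and 97.0), pial and perivascular-like (70.1 and 58.4) and arachnoid barrier-like cells (127 and 59.6). The log2 fold change of Eya2 was 0.93 ± 0.22 (edgeR adjusted p = 0.000202).

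Tbx15, known for its part in skeletal and skin patterning, was at 91.6 and 65.6 CPM in dural border-like cells. It was at 29.8 and 38.2 in inner arachnoid-like, 20.8 and 31.9 in pial and perivascular-like and 0 and 19.9 in arachnoid barrier-like cells. Dural border-like cells lay above all other layers in both libraries (log2 fold change 1.85 ± 0.39, edgeR adjusted p = 3.01e-05). Prrx2 passed as well (1.14 ± 0.27, edgeR adjusted p = 0.000208). Six2 and Eya2 passed in all 13 alternatives with a test, Tbx15 in 12 and Prrx2 in 11. Ebf1 passed in 9 of 14, and in the fit without arachnoid barrier-like cells its log2 fold change of 0.69 did not (adjusted p = 0.0872). In that fit Msx1 (-0.62, edgeR adjusted p = 0.00187) and Tbx18 (-0.53, adjusted p = 0.0155) were lower in dural border-like cells.

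Dural border-like cells came from 2 clusters, which differed in these genes although the genes had no part in the clustering. Twist1 was at 129 and 142 CPM in cluster F00 and at 47.6 and 55.1 CPM in cluster F01. Six2 was at 86.2 and 66.2 CPM in F00 and at 42.6 and 38.9 in F01, and Prrx2 at 142 in both libraries of F00 and at 95.2 and 38.9 in F01. For these 3 genes both libraries of F00 lay above both of F01. Ebf1 went the other way, with 37.2 and 27.0 CPM in F00 and 72.6 and 74.5 in F01. The clusters also differed in depth, with medians of 3167 and 3076 UMIs in F00 and 1460 and 1631 in F01. The median share of Malat1 was 5.77% and 6.84% in F00 and 8.68% and 8.63% in F01. The part of depth and RNA content in these differences was not tested. The clusters come from the same cells and were not tested.

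Tbx18 was the 1 gene of the 9 with its highest mean level in pial and perivascular-like cells. It was at 270 and 244 CPM there, at 156 and 124 in dural border-like, 143 and 99.3 in arachnoid barrier-like and 122 and 95.5 in inner arachnoid-like cells. Both libraries lay above both libraries of every other class in the fit. The log2 fold change against the other 3 layers was 1.10 ± 0.22 (edgeR adjusted p = 1.04e-05), and it passed in all 14 alternatives. Ebf1 passed too (edgeR adjusted p = 0.000224), in 10 of 14 alternatives, and in the fit without arachnoid barrier-like cells it was higher by 1.24 (edgeR adjusted p = 0.00908), although R2 (26.6 CPM, 5 UMIs) lay below dural border-like cells. So 2 of 9 genes were higher in pial and perivascular-like cells, where 12.4% of all tested genes passed, 7.97% as higher and 4.41% as lower. In the fit without arachnoid barrier-like cells 5 of 9 passed, where 14.7% of all tested genes did, with Six2 (-2.40), Tbx15 (-1.18) and Eya2 (-0.90) lower. The median log2 fold change over the 9 genes was -0.21, against 0.06 over all tested genes.

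In inner arachnoid-like cells Msx1 was at 298 and 209 CPM, against 210 and 281 in pial and perivascular-like, 177 and 212 in dural border-like and 159 in both libraries of arachnoid barrier-like cells. R1 of inner arachnoid-like cells lay above all other values, and R2 lay among those of pial and perivascular-like and dural border-like cells. Msx1 was higher by 0.83 ± 0.19 on the log2 scale (edgeR adjusted p = 0.000266) and Six2 by 1.63 ± 0.50 (adjusted p = 0.00926). These were 2 of 9 genes, where 17.7% of all tested genes passed, 13.2% as higher and 4.58% as lower, so the share was close to that of all genes. DESeq2 called neither. The Six2 call held in 5 of 11 alternatives, and without arachnoid barrier-like cells it was 1.01 (edgeR adjusted p = 0.0510), while Ebf1 was then lower by -1.93 (adjusted p = 7.48e-05). The median over the 9 genes was 0.13, against 0.15 over all tested genes.

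Inner arachnoid-like cells were 2 clusters of unlike RNA content. F03 was poor in Malat1 and led by the antibody genes Igha and Igkc, which mark plasma cells, with Cd79a next. It held 134 and 301 of the cells, while F05 held 94 and 106. The marker score of F03 was 1.28 for the inner arachnoid list and 1.18 for the plasma list, a near tie. The layer name of most cells in this class is therefore uncertain. For F05 the scores were 1.43 and, for pericytes as the next list, 0.912. Msx1 was at 234 and 172 CPM in F03 and at 333 and 264 in F05, and Tbx18 at 91.0 and 67.9 in F03 and at 138 in both libraries of F05. Twist1 was at 91.0 and 80.1 CPM in F03 and at 53.1 and 48.4 in F05. Prrx2 was at 32.5 and 75.2 CPM in F03 and at 10.6 and 18.6 in F05. Both libraries of F05 lay above both of F03 for Msx1 and Tbx18, and both of F03 above both of F05 for Twist1 and Prrx2. The part of RNA quality and of the plasma cell genes in this was not tested.

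Arachnoid barrier-like cells gave no call among the 9 genes with edgeR, where 5.78% of all tested genes passed, 2.86% as higher and 2.92% as lower. DESeq2 called none either, and 3 genes had an unadjusted p under 0.05 with edgeR, Ebf1, Msx1 and Tbx15. Prrx1 (127 and 218 CPM), Tbx18 (143 and 99.3) and Msx1 (159 in both) lay above macrophages beyond their intervals in both libraries. The 9 genes together had 51 and 31 UMIs in this class. Their median log2 fold change was -0.72, against -0.24 over all tested genes.

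**Figure D3:**
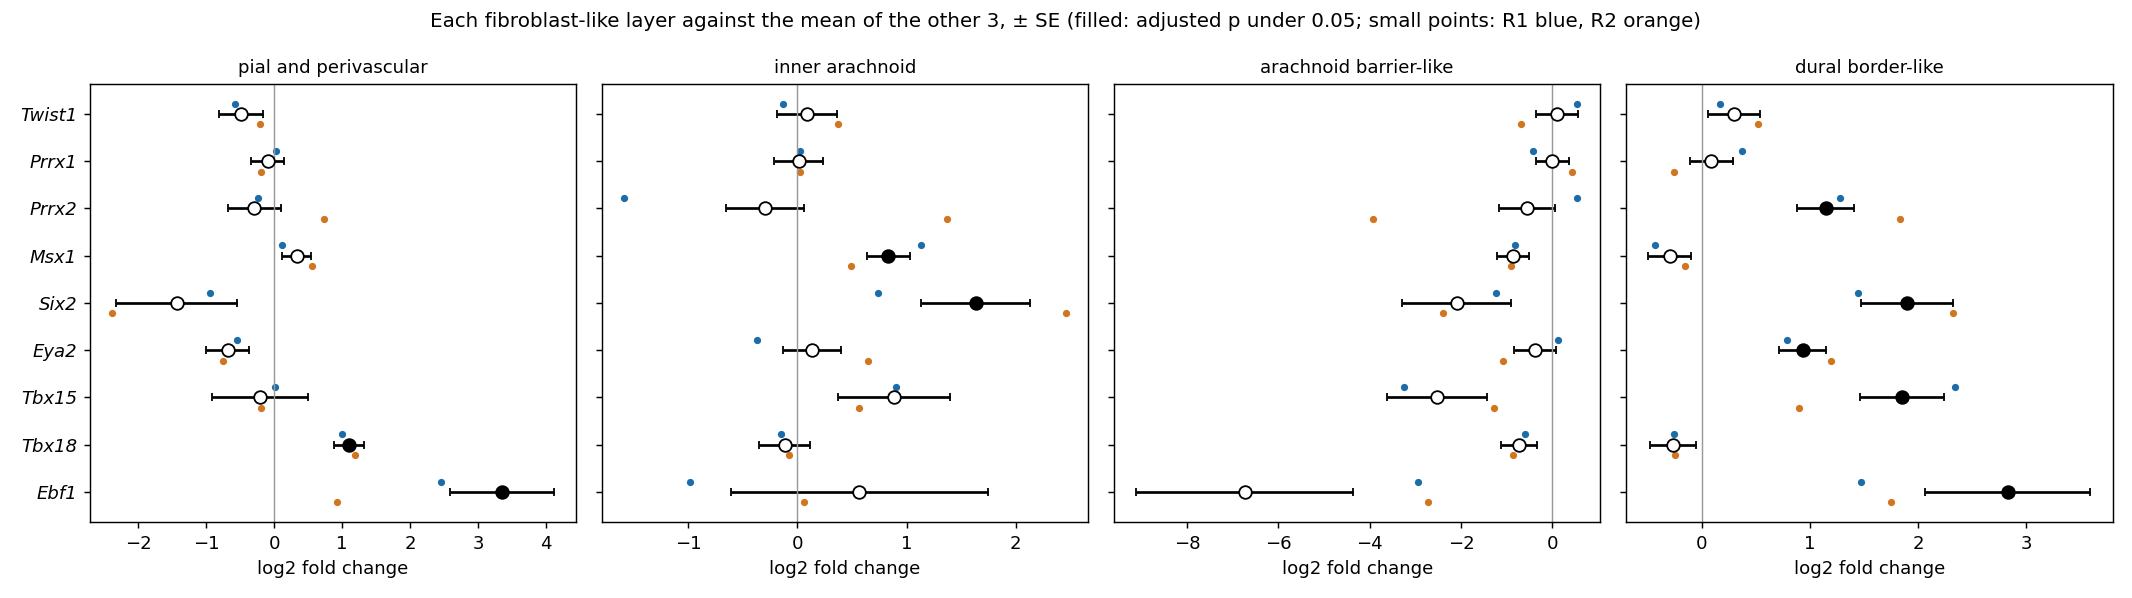
Log2 fold changes (x axis, ± SE) of the 9 genes in each fibroblast-like layer against the mean of the other 3; filled circles passed an adjusted p of 0.05, small points are R1 (blue) and R2 (orange), and each panel has its own x range. Tbx18 at 1.10 is filled for the pial and perivascular-like layer, and Tbx15, Six2, Eya2 and Prrx2 lie right of 0 for the dural border-like layer; the Ebf1 points depend on the prior count because arachnoid barrier-like cells had 0 UMIs.

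Shares of cells with at least 1 UMI were taken after each cell was thinned to 1000 UMIs and shallower cells were left out. Tbx18 was found in 24.3% of 148 pial and perivascular-like cells of R1 (95% Clopper-Pearson interval 17.7 to 32.1) and 21.5% of 65 of R2 (12.3 to 33.5). It was found in 20.0% of mural-like cells in both libraries, in 1.53% and 1.22% of endothelial-like cells and in 2.35% and 2.41% of macrophages. Ebf1 was found in 64.0% and 70.0% of mural-like cells (25 and 20 cells deep enough), in 38.8% and 36.0% of endothelial-like cells and in 0% and 0.241% of macrophages, where the 0 of 383 cells allows up to 0.783%. Without thinning, the Ebf1 shares were 67.4% and 48.9% in mural-like and 54.3% and 42.1% in endothelial-like cells, and the Tbx18 shares 40.6% and 33.3% in pial and perivascular-like cells.

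Six2 was found in 8.32% and 5.88% of dural border-like cells, against 1.04% and 1.45% of macrophages, and Tbx15 in 7.35% and 6.25%, against 0.783% and 0.964%. Eya2 reached 16.1% and 17.6% among dural border-like cells, against 6.08% and 7.69% among pial and perivascular-like cells. These are low shares at 1000 UMIs and count cells with a UMI, not cells that express the gene. Counting cells with at least 1 of the 9 genes gave 67.1% and 61.4% for dural border-like cells, against 9.66% and 13.7% for macrophages, whose median depths were 2346 and 2084 UMIs and 1445 and 1203 UMIs.

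**Figure D4:**
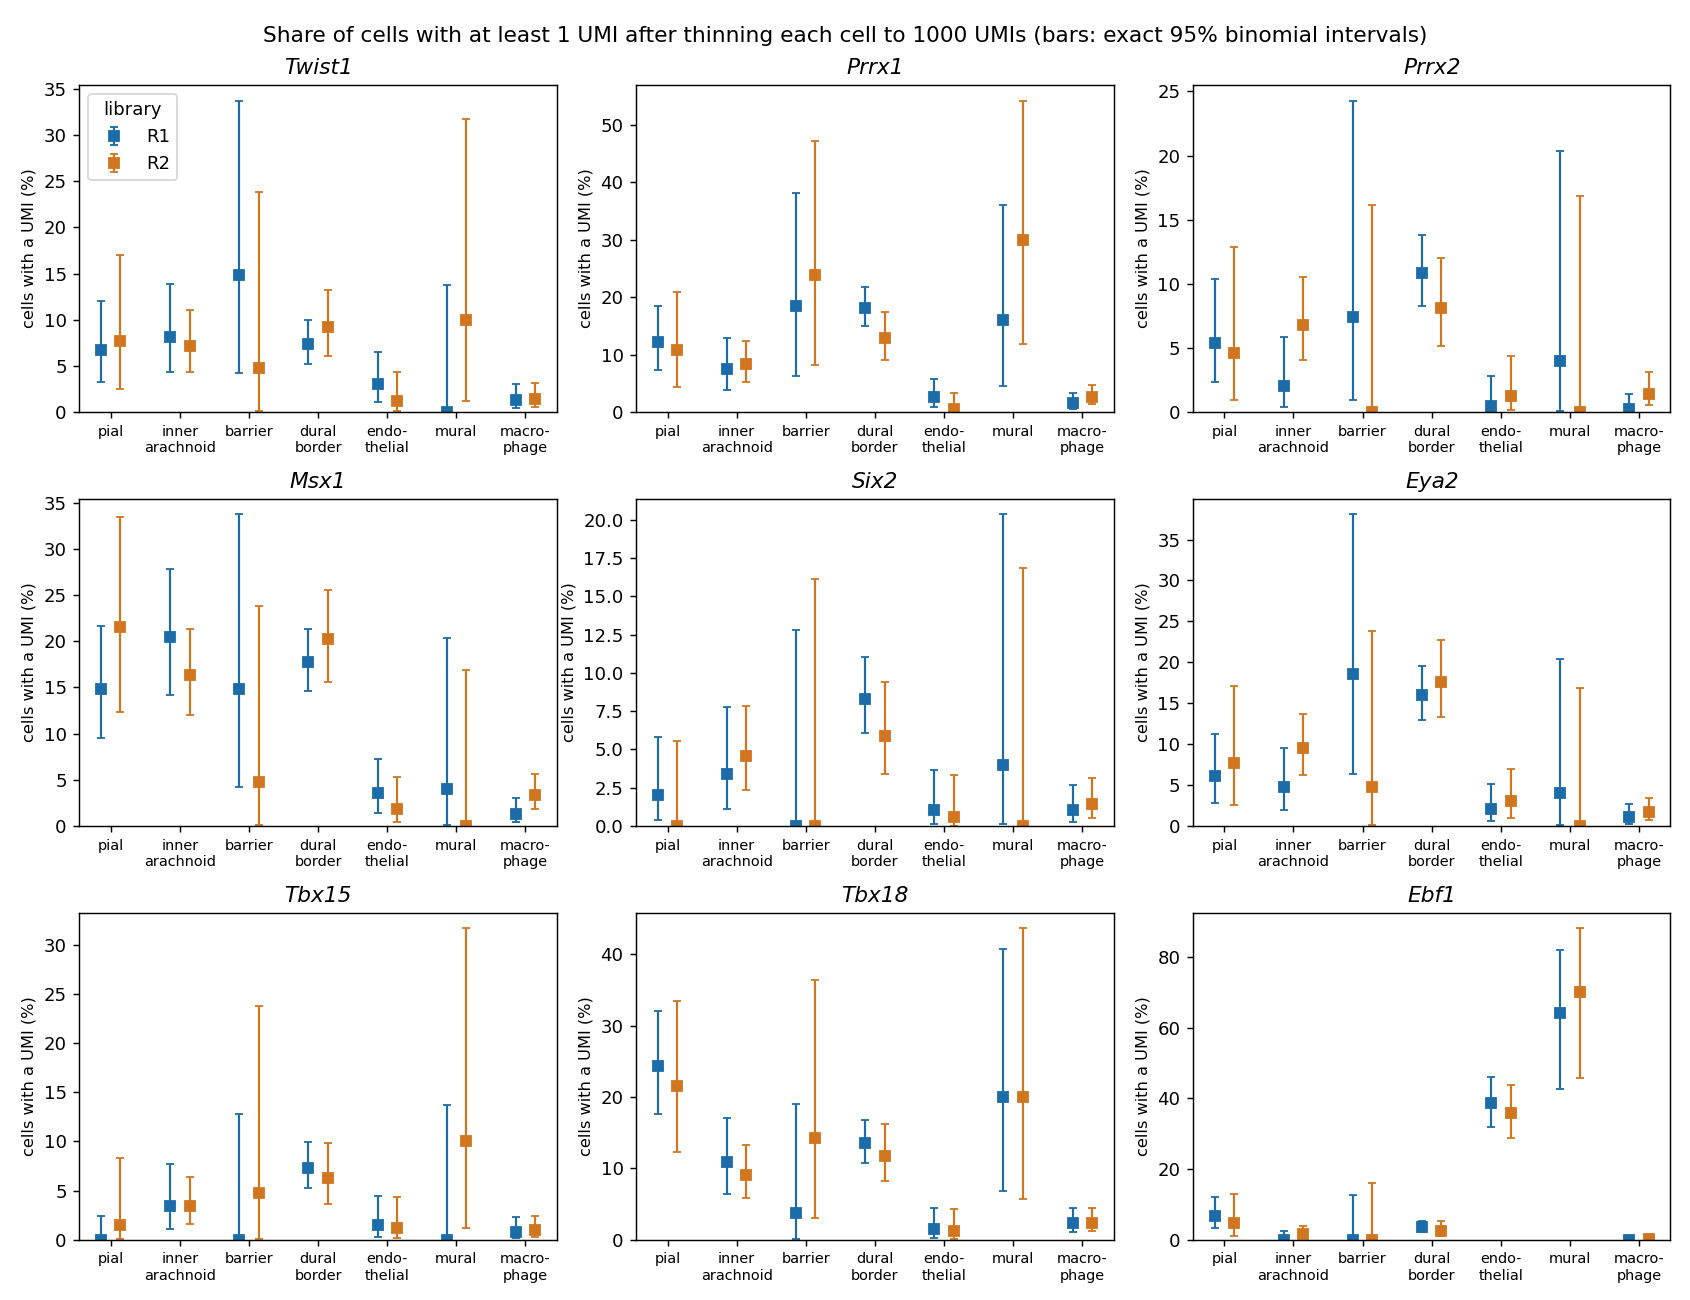
Share of cells with at least 1 UMI of each gene (percent, axis from 0) after thinning to 1000 UMIs, by class and library (blue R1, orange R2), with exact 95% binomial intervals. Tbx18 is highest at 24.3% and 21.5% in pial and perivascular-like cells, and the macrophage points at the right show the background.

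The related factors were 82 listed genes in 6 lists, of which 81 were in the deposited features and 29 could be tested. Between fibroblast-like and endothelial-like cells 7 were higher and 10 lower, where 12.2% of all tested genes were higher and 20.7% lower. In the T-box list 3 of 4 tested genes were lower in fibroblast-like cells and none higher (median log2 fold change -2.98), among them Tbx1, at 0 and 0.698 CPM against 88.3 and 126 CPM in endothelial-like cells, and Tbx3, at 12.4 and 15.9 against 83.0 and 133 CPM. In the list of Six2 relatives with the Eya and Dach genes 3 of 4 were higher and 1 lower (median 1.47). Eya1, a relative of Eya2, was at 99.3 and 131 CPM against 7.06 and 10.1 CPM (3.66 ± 0.40, edgeR adjusted p = 9.05e-19), while Dach1 was lower, at 0.649 and 0 against 47.7 and 40.3 CPM.

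Of 8 tested partners and relatives of TWIST, 4 were lower in fibroblast-like cells and none higher (median -0.61), among them Id1, an inhibitor of E proteins (196 and 236 against 621 and 1027 CPM, a log2 fold change of -2.45 ± 0.17). Of 9 tested homeobox genes of mesenchyme, 4 were higher and 1 lower (median 1.74). Hhex, a homeobox gene of endothelial and blood precursors, was at 0.176 and 0 against 54.7 and 35.2 CPM. Of the 3 tested EMT factors (for epithelial to mesenchymal transition) 1 was lower, Zeb1, by -0.67 ± 0.25 (edgeR adjusted p = 0.0258), and the 1 tested EBF partner was not called.

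Against mural-like cells 1 of the 29 related factors was higher in fibroblast-like cells and 5 were lower, where 4.47% of all tested genes were higher and 5.96% lower. Tbx2 was at 1.18 and 5.68 CPM in fibroblast-like and at 224 and 310 CPM in mural-like cells (edgeR adjusted p = 1.47e-20), and Zeb2 at 63.5 and 61.9 against 702 and 523 CPM (adjusted p = 2.33e-29). Between mural-like and endothelial-like cells 3 were higher and 3 lower, where 4.55% of all tested genes were higher and 7.97% lower. Among the 3 higher was Alx4, at 89.6 and 58.1 against 5.30 and 7.55 CPM (3.30 ± 0.82, edgeR adjusted p = 0.00106), a gene whose pattern was also among the 3 most like that of Prrx1.

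Among the layers, 8 of the 29 related factors were higher and 5 lower in dural border-like cells, where 10.8% of all tested genes were higher and 5.83% lower. Eya1 was lower (-0.78 ± 0.24, edgeR adjusted p = 0.00821). The E protein inhibitors Id2 (674 and 518 against 73.7 and 80.9 CPM) and Id1 (532 and 578 against 84.5 and 122 CPM) were higher. Lmx1b, a LIM homeobox gene, was higher by 2.37 ± 0.60 (edgeR adjusted p = 0.000955).

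In pial and perivascular-like cells 8 of the 29 related factors were higher and 2 lower, where 7.97% of all tested genes were higher and 4.41% lower. All 3 tested EMT factors were among the 8 (median 1.95, against 0.06 over all tested genes), with Snai1 at 62.3 and 95.6 against 18.5 and 17.9 CPM (3.65 ± 0.73, edgeR adjusted p = 1.28e-05) and Zeb2 at 151 and 122 against 34.5 and 41.8 CPM. Tcf4, an E protein, was at 1536 and 1163 against 435 and 394 CPM (1.81 ± 0.18, edgeR adjusted p = 7.08e-22), and the T-box gene Tbx3 was higher by 2.84 ± 0.59 (adjusted p = 3.42e-05). The fitted log2 folds of Snai1 and Tbx3 were above those of either library alone (1.95 and 2.59 for Snai1, 2.52 and 1.48 for Tbx3). Id1 was lower by -1.84 ± 0.31 (adjusted p = 1.19e-07). No related factor was called in inner arachnoid-like cells (edgeR), where 17.7% of all tested genes passed and 2 related factors had an unadjusted p under 0.05. In arachnoid barrier-like cells 1, Id3, was lower, where 2.92% of all tested genes were lower.

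Likeness of pattern was measured as Pearson's r of log2(CPM + 2) over the 12 class and library sums, which share libraries and depths, and is given as a description. The most like gene was G0s2 for Tbx15 (0.962), Zic1 for Tbx18 (0.962), Cops3 for Six2 (0.932), Ddr2 for Eya2 (0.946), Rassf2 for Twist1 (0.95), Dtx3 for Prrx1 (0.952), Rarb for Prrx2 (0.943), Itm2c for Msx1 (0.983) and Dubr for Ebf1 (0.972). Next came Epdr1 and Cystm1, Lrp1 and Rgma, Lancl1 and Pick1, Ctnnal1 and Clip4, Zic4 and Smo, Alx4 and Asph, Cxcl16 and Snhg4, Rnf43 and Cyp4f17, and Gjc1 and Vasp, in the same order of members. Among the 9 genes themselves, Eya2 and Twist1 were most alike (0.875), and Msx1 and Ebf1 were most opposed (-0.742).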

How the data were processed

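Single-cell UMI counts of 2 libraries were used as deposited by the authors, who made them with Cell Ranger (4.0.0) on mm10, per the submitters' processing notes and the file headers.

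Barcodes under 400 genes or over 10% mitochondrial UMIs were dropped, Scrublet was run at an expected rate of 0.05, and cells were clustered with scanpy 1.11.5 (2000 variable genes, 30 components, 15 neighbours, Leiden resolution 1.0 with igraph 0.11.9, then 0.8 within fibroblast-like clusters). Clusters were named by marker score, with cutoffs chosen after the clusters had been seen. Cells whose barcode occurs in both libraries were clustered but left out of the sums and levels, a choice made after seeing the data. A count of 0 allows 3 counts.

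Raw counts were summed per class and library (at least 30 cells in each) and tested with edgeR 4.0.16 (quasi-likelihood, TMM, filterByExpr, library as a block) in 1 fit of 12 sums and 6 classes, with 5 residual degrees of freedom and a biological coefficient of variation of 0.126. The block pairs classes of the same library, since each library gave every class. Between classes, the deviations of R1 from R2 correlated by a median of 0.103 over 15 pairs of classes (0.0343 to 0.250). The standard error is the log2 fold change over the root of F. CPM of a side that joins layers is their mean. The fit was tested on simulated counts.

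The members, the lists and the tests were chosen with earlier results of these data known. Named are the 9 members, up to 2 genes per related list and comparison with the largest fold change that passed, went the same way in both libraries and reached 10 CPM, from which a few are printed (some are not reported here), and the 3 tested genes most like each member. Alternatives were DESeq2 1.42.0, other filters, clusterings and sums. Scripts ran in R 4.3.3 (with limma 3.58.1) and python 3.11.15 (pandas 2.3.3, scipy 1.17.1, numpy 2.4.6, anndata 0.12.19).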

Additional observations from a re-analysis of the deposited data

Results flagged for a closer look

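Several groups of cells that took no part in the comparisons held these transcripts above the counting interval of macrophages in both libraries. The largest, F02, was a fibroblast-like cluster of 352 and 657 cells without a layer name, with a median of 731 and 769 UMIs, and 6.53% and 4.26% of its cells had at least 1% of UMIs from Malat1. Its dural border markers summed to 2977 and 2779 CPM. Six2, which was among its leading genes, had a mean level of 121 CPM in F02 (150 and 93.0 CPM in R1 and R2). The mean levels of the other genes there were 94.6 CPM for Tbx15, 91.2 for Tbx18, 233 for Eya2, 132 for Twist1, 129 for Prrx1, 143 for Prrx2 and 201 for Msx1. Dural border-like cells had lower means of Tbx15 (78.6), Six2 (64.2), Eya2 (175), Twist1 (106), Prrx2 (113) and Msx1 (194). They had higher means of Tbx18 (140), Prrx1 (156) and Ebf1 (47.3, against 5.84 in F02). F07, an unnamed cluster led by macrophage genes (19 and 39 cells), held Tbx15 at 117 CPM, Tbx18 at 137, Eya2 at 184 and Msx1 at 142.

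C08, led by neural genes such as Meg3 (40 and 73 cells), held Tbx18 at 117 CPM, Prrx1 at 188, Msx1 at 166 and Ebf1 at 78.4. Plasma-like cells, 18 and 16 of them, held Ebf1 at a mean of 1386 CPM (168 and 120 UMIs). Their cluster also had the B cell markers Cd79a and Cd79b among its leading genes. Its marker score was 9.15 for plasma cells and 4.99 for B cells, the next list. Which of these cells held the Ebf1 UMIs was not tested. The endothelial-like cells of C04, whose barcodes occur in both libraries, held Ebf1 at 345 CPM and Msx1 at 76.3 CPM.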

How the results depend on the processing

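Of 80 recomputed counts of genes called among the 9, 70 stayed within 1.5 times. Between fibroblast-like and endothelial-like cells, equal totals of 50354 UMIs left 4 of 4 testable genes called (Prrx1, Msx1, Tbx18 and Ebf1), and the other 5 could not be tested there. Of all 1496 genes tested with equal totals 41.0% passed, against 32.9% in the main fit. Mural-like against endothelial-like cells gave 6 with at least 800 genes per cell, where 38.9% of all tested genes passed, against 12.5% in the main fit. Of the 75 cells named mural-like in that setting, 56 came from C08. The pial and perivascular-like count became 6 with classes drawn on 1 random part of the counts and tested on the rest (split counts), a fit in which dural border-like cells were the only other layer, and 5 without arachnoid barrier-like cells. Of all tested genes 22.3% and 14.7% passed in these fits, against 12.4% in the main fit. The inner arachnoid-like count was 0 with DESeq2, 0 of 4 testable genes with equal totals (where Six2 had no test), 1 at resolution 1.5 and 1 with unnamed clusters added. The shares of all tested genes were 9.56%, 16.2%, 19.2% and 12.8% in that order, against 17.7% in the main fit. The dural border-like count was 0 of 4 testable genes with equal totals, where Ebf1 was the 1 gene of the 5 calls with a test, and 3 at a mitochondrial limit of 5%, against pial and perivascular-like cells alone. Of all tested genes 18.9% and 18.7% passed in these fits, against 16.7% in the main fit.

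Of 776 fold changes recomputed with both libraries, 12 changed sign. At a mitochondrial limit of 5%, Six2 (fibroblast-like against endothelial-like) was -0.29 and Ebf1 (dural border-like) -0.20. With at least 800 genes, where C08 makes up most of the mural-like class, Tbx15 was 1.01, Id3 0.86 and Pbx3 -0.47 for fibroblast-like against mural-like cells, and Ebf1 was -0.98, Msx1 1.64 and Six2 0.32 for mural-like against endothelial-like cells. With split counts, Tbx15 was 0.76 (fibroblast-like against mural-like), Twist1 -0.43 and Six2 0.38 (mural-like against endothelial-like), and Ebf1 -0.72 (dural border-like). Apart from C08, the cause was not tested. Leaving out either library leaves values with no test: of 144 such fold changes, 67 moved by more than the spread between the libraries and 2, neither of them of a called gene, changed sign. Over all 63 fold changes of the 9 genes, the libraries had opposite signs in 14, none of them called.

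Without the replicate block, Eya2 lost its call against mural-like cells (adjusted p = 0.0516) and Eya1 its call in pial and perivascular-like cells (0.0566); no other named call changed.

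Over all tested genes, the number of calls moved by over 1.5 times in these cases. The main fit tested 9257 genes and some alternatives far fewer, so shares of the tested genes are given beside the numbers. Equal totals, with 1496 genes tested, gave 614 against 3042 (fibroblast-like against endothelial-like), 475 against 966 (fibroblast-like against mural-like), 356 against 1159 (mural-like against endothelial-like), 277 against 1146 (pial and perivascular-like), 242 against 1642 (inner arachnoid-like), 236 against 535 (arachnoid barrier-like) and 282 against 1542 (dural border-like). Cells of at least 800 genes gave 1907 (22.5%, fibroblast-like against mural-like), 3295 (38.9%, mural-like against endothelial-like) and 1002 (11.8%, inner arachnoid-like). Split counts gave 638 and 654 for the first pair of these. DESeq2 gave 712 (7.69%) for mural-like against endothelial-like and 885 (9.56%) for inner arachnoid-like cells. Malat1-richer cells gave 907 (11.1%) for inner arachnoid-like and unnamed clusters added 1723 (18.3%) for pial and perivascular-like cells. The fit without arachnoid barrier-like cells gave 2496 (27.7%) for dural border-like cells.

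With DESeq2, which changes the scaling, the dispersion model and the test together, the median log2 fold change of all genes went from -0.28 to -0.03 for mural-like against endothelial-like cells. The share of calls that were higher went from 36.3% to 63.6% there, from 42.9% to 20.7% for fibroblast-like against mural-like, from 74.2% to 62.1% for inner arachnoid-like, from 49.5% to 83.2% for arachnoid barrier-like and from 65.0% to 54.7% for dural border-like cells. Fits at a limit of 5%, at 800 genes, with Malat1-richer cells or with split counts lacked classes under 30 cells, and those comparisons were not run.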
